A study of Mus musculus with 6 samples.

Results

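Sugar, amino acid, monocarboxylate and mitochondrial carriers were followed across 3 fractions of blood-forming LSK cells, the lineage-negative, Kit-positive and Sca1-positive cells of mouse bone marrow that hold stem cells and early multipotent progenitors. The members are the genes whose single annotated symbol falls in the solute carrier families Slc1, Slc2, Slc3, Slc6, Slc7, Slc16, Slc25, Slc38 and Slc43, which gave 127 of the 18193 genes measured. Each gene was read from its brightest probe set over all arrays. The symbol rule itself uses no measured value, but the members were chosen with earlier results of these data known. The symbol rule also takes in the pseudogene Slc2a4rg-ps and the opposite-strand genes Slc7a6os and Slc6a19os, which are not carriers.

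Cells came from the marrow of mice 10 to 14 weeks old. A sort on CD34 and Flt3, both surface antigens, gave a CD34-Flt3- fraction, a CD34+Flt3- fraction and a CD34+Flt3hi fraction. The labels name no strain, genotype or treatment, and all 3 groups are untreated as far as they say. Each group had 2 Affymetrix arrays, hybridised with RNA amplified in successive rounds of in vitro transcription. Whether paired arrays of a group stem from different animals or sorts is not given in the labels. The p-values therefore reflect array-to-array spread alone, and that spread may be technical.

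Solute carriers move nutrients across membranes. Slc2 proteins carry glucose and other sugars into the cell, Slc16 proteins carry lactate, pyruvate, creatine and aromatic amino acids, and the Slc1, Slc6, Slc7, Slc38 and Slc43 families carry amino acids, several Slc7 members only as partners of the Slc3 heavy chains. Slc25 proteins exchange nucleotides, phosphate, amino acids and organic acids across the inner mitochondrial membrane. Long-lived blood stem cells are known for low division rates and for reliance on glycolysis, and multipotent progenitors for more active mitochondria.

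Values are log2 intensities, given in the order replicate 1 and replicate 2. Background was a log2 of 4.50, the 90th percentile of 27 unspiked bacterial control probe sets, and a fold is written "at least" where a group lay below it. Of the 127 genes, 101 had a group mean above background in at least 1 group and 87 in every group. The other 26 were below background throughout: Slc1a1, Slc1a6, Slc2a2, Slc2a13, Slc6a3, Slc6a11, Slc6a12, Slc6a14, Slc6a19os, Slc6a20a, Slc6a20b, Slc7a2, Slc7a3, Slc7a8, Slc7a10, Slc7a11, Slc7a12, Slc7a14, Slc7a15, Slc16a4, Slc16a5, Slc25a2, Slc25a31, Slc25a41, Slc25a54 and Slc38a4. Levels of different genes were not compared, since each probe set has its own response. Groups of 2 arrays that do not overlap are common. Over all genes, both CD34+Flt3hi arrays were above both CD34-Flt3- arrays in 18.8% and below both in 29.1%. Among the carriers these shares were 19.7% and 27.6%. Over all genes they were 15.6% and 28.6% in the step from CD34-Flt3- to CD34+Flt3- cells. In the step to CD34+Flt3hi they were 22.7% and 17.7%.

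Flt3 RNA was highest on both CD34+Flt3hi arrays, while the other groups overlapped. It stood at 7.65 and 9.16 in CD34-Flt3-, 8.84 and 9.81 in CD34+Flt3- and 12.01 and 11.75 in CD34+Flt3hi cells. Kit, which marks LSK cells, stood between 8.82 and 10.99 on all arrays. Both belong to 5 measured genes of LSK identity, and others of these also differed between groups. In the step from CD34-Flt3- to CD34+Flt3- cells 1 was called higher and 2 lower (0.77% and 1.33% of all genes). In the step to CD34+Flt3hi 1 was called higher (0.385% of all genes). From CD34-Flt3- to CD34+Flt3hi cells 2 were called higher and 2 lower (2.62% and 3.5% of all genes), with differences from -3.10 to 3.48. Titles end in a code whose meaning is not given. With the codes written as A, B and C, code A is replicate 2 of every group, code B replicate 1 of both CD34+ groups, and code C replicate 1 of CD34-Flt3-. The CD34-Flt3- pair was the least alike, with r = 0.969 over all genes against 0.981 for the CD34+Flt3- pair and 0.990 for the CD34+Flt3hi pair. Of the carriers, 12 differed by more than 2-fold between the CD34-Flt3- arrays, against 5 and 0 in the other pairs. Division genes differed between groups and within that pair: the mean log2 of 11 proliferation genes was 9.20 and 7.87 in CD34-Flt3-, 10.22 and 10.19 in CD34+Flt3- and 10.44 and 10.51 in CD34+Flt3hi cells. Of these 11 genes, 4 were called higher in CD34+Flt3- than in CD34-Flt3- cells, with 0.77% of all genes, and 10 higher in CD34+Flt3hi cells than in CD34-Flt3- cells, with 2.62% of all genes. Their part in the carrier results was not tested. In sorted bulk RNA, fewer cells that express a gene and less of its RNA per cell cannot be told apart.

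Between the outer fractions, 8 of the 127 genes passed an adjusted p of 0.05 in limma. The 6 that were lower in CD34+Flt3hi cells than in CD34-Flt3- cells were Slc6a15, Slc2a3, Slc7a7, Slc16a12, Slc38a5 and Slc25a54, against a background of 3.5% of all genes. The 2 that were higher were Slc25a30 and Slc43a3, against 2.62% of all genes. The 8 genes are 6.3% of the members, and 6.11% of all genes passed in either direction, so the share of carriers called was near the background. In the step from CD34-Flt3- to CD34+Flt3- cells 1 gene passed, Slc6a15, where 2.1% of all genes passed in either direction and 1.33% as lower. In the step from CD34+Flt3- to CD34+Flt3hi cells 0 of the 127 passed, where 0.61% of all genes did. At an unadjusted limma p under 0.05 there were 19, 10 and 22 carriers in these steps and the outer comparison, or 15%, 7.87% and 17.3%, against 16.9%, 6.76% and 18.3% of all genes. Code A alone holds an array of each group, and within it the outer difference was -2.76 for Slc6a15, -1.69 for Slc2a3, -1.59 for Slc7a7, -1.43 for Slc16a12, -0.85 for Slc38a5, 2.01 for Slc25a30 and 1.29 for Slc43a3, each from a single pair of arrays. All 7 ran in the direction of the pooled values, which is no separate check. The pooled values include these arrays, and the outer groups do not overlap for these genes, so the direction was fixed beforehand. The moderated F over the 3 groups called 4 genes, Slc6a15, Slc2a3, Slc7a7 and Slc16a12, where 4.67% of all genes passed. In the test of a difference between the steps 0 of the 127 passed, where 0.0275% of all genes did, and 8 carriers, or 6.3%, had an unadjusted limma p under 0.05 against 9.29% of all genes.

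The counts moved when the title code, which arrays of different groups share, was a fixed block in the limma fit. The step from CD34+Flt3- to CD34+Flt3hi cells, where both groups have an array of code A and of code B, then had 6 carriers past the threshold, with 3.68% of all genes. They were Slc25a12, Slc25a53, Slc43a2 and Slc38a1 as higher and Slc16a12 and Slc7a8 as lower, the last below background in every group. The step from CD34-Flt3- to CD34+Flt3- cells had 10 carriers (8.68% of all genes), the outer comparison 18 (13% of all genes) and the F 18 (13.3% of all genes). In comparisons with CD34-Flt3- cells the block leaves only replicate 2 of that group to inform the difference, since its replicate 1 is the sole array of code C. The block fit also leaves fewer residual degrees of freedom than the 3 of the main fit. Its p-values therefore lean more on the variance shared over genes. Of the carriers called without the block, the 1 in the first step, 7 of the 8 between the outer fractions and the 4 of the F passed with it.

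**Figure D1:**
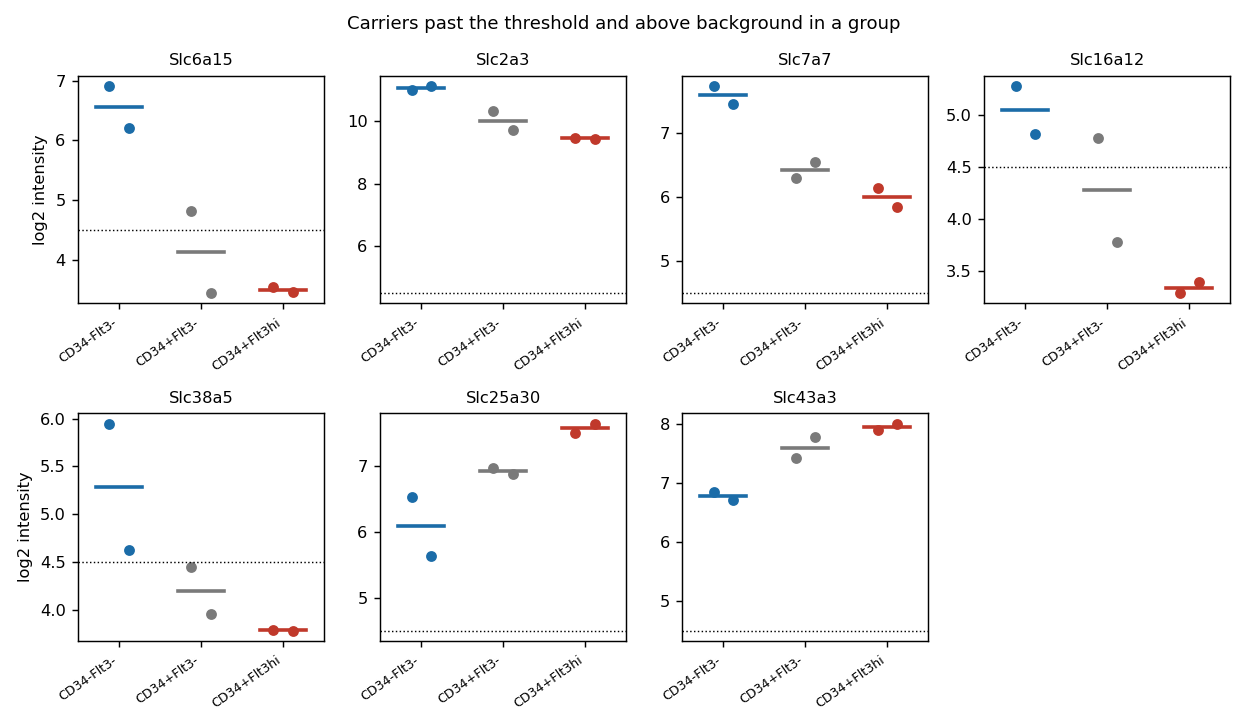
Log2 intensity (vertical axis) of the 7 carriers past the threshold in limma that were above background in a group, for the 3 sorted groups (horizontal axis). Points are single arrays with replicate 1 on the left, bars are means of 2 arrays and the dotted line is background at 4.50. Slc6a15, Slc2a3, Slc7a7, Slc16a12 and Slc38a5 are highest in CD34-Flt3- cells, and Slc25a30 and Slc43a3 in CD34+Flt3hi cells.

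Upstream sequence was read for the called genes from RefSeq's mouse promoter table, build GRCm38.p6, which held windows for 94 of the 127 genes and 5 of the 8 called. The 250 bases before the annotated start were searched on both strands for CACGTG, the E-box read by Myc with Max and by other helix-loop-helix factors, and for TGATGNAAT, an amino acid response element of the kind read by Atf4. No window of a called gene held both motifs. Of the called genes that fell between the outer fractions, Slc16a12 and Slc38a5 held an E-box, and Slc7a7 and Slc25a54 held neither motif. Slc25a30, which rose, held neither motif. Windows of 3 genes that moved are shown, with the E-box in capitals, for Slc16a12 at chr19:34747329-34747578 on the minus strand, for Slc38a5 at chrX:8271131-8271380 on the plus strand and for Slc25a30 at chr14:75787038-75787287 on the minus strand.
Slc16a12: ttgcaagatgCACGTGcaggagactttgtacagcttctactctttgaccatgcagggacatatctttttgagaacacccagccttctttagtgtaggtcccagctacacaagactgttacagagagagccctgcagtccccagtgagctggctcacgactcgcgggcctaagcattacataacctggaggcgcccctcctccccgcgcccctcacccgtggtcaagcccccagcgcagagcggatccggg
Slc38a5: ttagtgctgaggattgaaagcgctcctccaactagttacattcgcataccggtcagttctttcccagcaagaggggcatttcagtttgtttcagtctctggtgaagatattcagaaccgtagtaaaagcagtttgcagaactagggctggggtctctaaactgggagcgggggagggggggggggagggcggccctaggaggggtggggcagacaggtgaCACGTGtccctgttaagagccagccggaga
Slc25a30: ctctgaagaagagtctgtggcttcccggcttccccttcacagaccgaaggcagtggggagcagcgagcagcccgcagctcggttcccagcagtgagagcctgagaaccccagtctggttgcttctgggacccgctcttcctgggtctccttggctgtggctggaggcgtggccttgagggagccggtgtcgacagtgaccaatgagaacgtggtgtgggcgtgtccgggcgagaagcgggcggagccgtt

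The E-box began 240 bases before the start in Slc16a12 and 30 bases before it in Slc38a5. Over all windows it was found in 17 of the 94 carriers, or 18.1%, against 6.86% of the 27025 genes in the table and 7.61% of its 17491 protein-coding genes, with base composition not matched. The 17 carriers were Slc1a6, Slc1a7, Slc6a3, Slc6a16, Slc7a14, Slc16a1, Slc16a12, Slc25a1, Slc25a13, Slc25a14, Slc25a15, Slc25a31, Slc25a33, Slc25a36, Slc38a5, Slc38a7 and Slc43a1. The searched form of the amino acid response element, TGATGNAAT, was found in 1 of the 94, Slc6a21, or 1.06%, against 0.910% of all genes. Forms with another last base were not counted, such as the tgatgcaaa in the Slc7a11 window. These matches describe the letters in the windows only.

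Between the outer fractions, differences ran both ways within every family but Slc1. Among the 101 genes above background, the median log2 difference was -0.13 in the step from CD34-Flt3- to CD34+Flt3-, 0.06 in the step to CD34+Flt3hi and -0.04 between the outer fractions, against -0.14, 0.05 and -0.08 over the 14106 genes of the arrays above background. Between the outer fractions 48 members had a positive and 53 a negative difference, with 6 more than 2-fold higher and 7 more than 2-fold lower. Of all genes above background, 42.9% had a positive difference there, the share to hold beside the family counts given below. The Slc7 family had the lowest family median there, -0.38 over 8 genes, and Slc43 the highest, 0.46 over 3 genes. These medians carry no test.

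**Figure D2:**
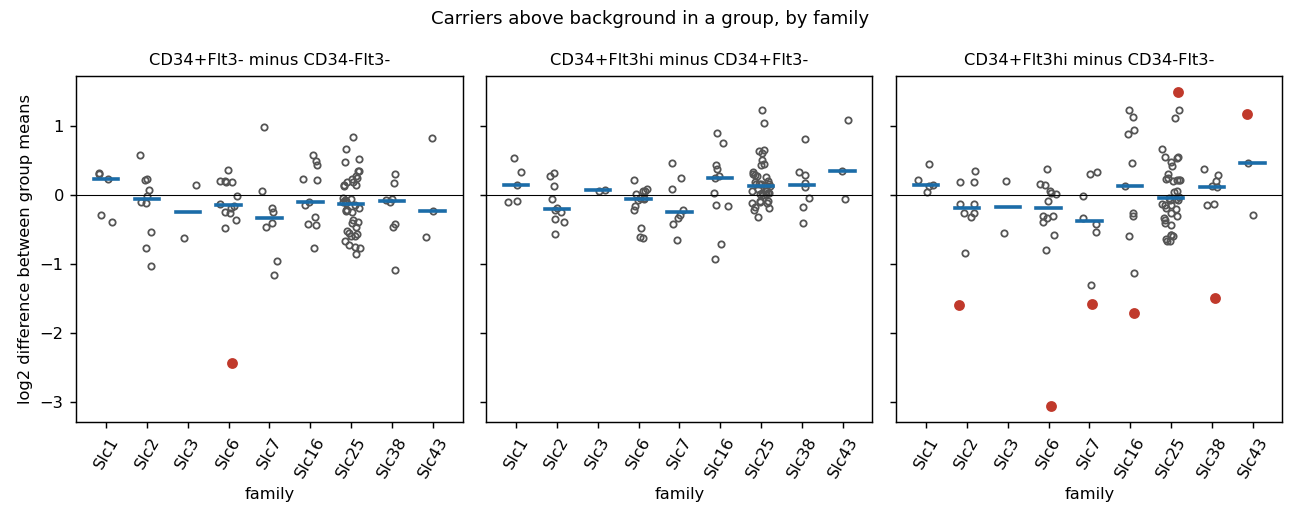
Log2 differences between group means (vertical axis) of the 101 carriers above background in a group, by family (horizontal axis), for the 3 comparisons. Each circle is a gene, filled red where limma's adjusted p was under 0.05, and blue bars are family medians. Most circles lie within 1 log2 unit of 0, and Slc6a15 is the lowest point in the panels for the step to CD34+Flt3- and for the outer fractions.

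The called glucose carrier was highest in CD34-Flt3- cells. Slc2a3, the high-affinity glucose carrier GLUT3, stood at 10.98 and 11.11 in CD34-Flt3-, 10.31 and 9.72 in CD34+Flt3- and 9.46 and 9.42 in CD34+Flt3hi cells. The arrays of different groups stood apart, and the level was lower at each step. It was 3.04-fold lower in CD34+Flt3hi cells than in CD34-Flt3- cells, a log2 difference of -1.60 ± 0.23 (SE, n = 2 and 2, limma adjusted p = 0.0036). The separate steps of -1.03 and -0.57 had adjusted p = 0.056 and 0.647 in limma. The call was lost without either CD34+Flt3hi array, at adjusted p = 0.0508 without replicate 1 and 0.0574 without replicate 2. With the mean of all its probe sets the outer difference was -0.75 (adjusted p = 0.0755).

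Slc2a3 had 3 other probe sets. One of them ran the same way, with a difference of -1.60 between the outer fractions, and the other two were below background in every group, at 0.30 and -0.11. The sets that gave signal carry suffixes for possible matches to more than 1 transcript.

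Slc2a1, the widespread glucose carrier GLUT1, stood at 8.88 and 9.18 in CD34-Flt3-, 8.38 and 8.13 in CD34+Flt3- and 8.0 and 8.37 in CD34+Flt3hi cells. Both CD34-Flt3- arrays were above all others, but the difference of -0.84 ± 0.26 (SE) between the outer fractions did not pass in limma, with adjusted p = 0.102. Its other probe sets gave -1.27 and -1.0. Slc2a4, the insulin-responsive carrier GLUT4, ran from 5.27 to 6.56 with groups that overlapped. Of the 10 Slc2 genes above background, 3 had a positive and 7 a negative difference between the outer fractions, with a median of -0.19.

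Txnip, an arrestin-like protein that promotes the uptake of GLUT1 from the cell surface into vesicles, was among the regulators listed beside the carriers. It stood at 11.42 and 11.27 in CD34-Flt3-, 9.36 and 9.04 in CD34+Flt3- and 8.63 and 9.24 in CD34+Flt3hi cells. CD34-Flt3- cells were thus highest for both glucose carriers and for Txnip. Txnip fell by 2.14 ± 0.25 (SE) on the log2 scale in the step from CD34-Flt3- to CD34+Flt3- cells (limma adjusted p = 0.009), and differed by -2.41 between the outer fractions. Without CD34+Flt3- replicate 2 the step of -1.98 had adjusted p = 0.168.

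**Figure D3:**
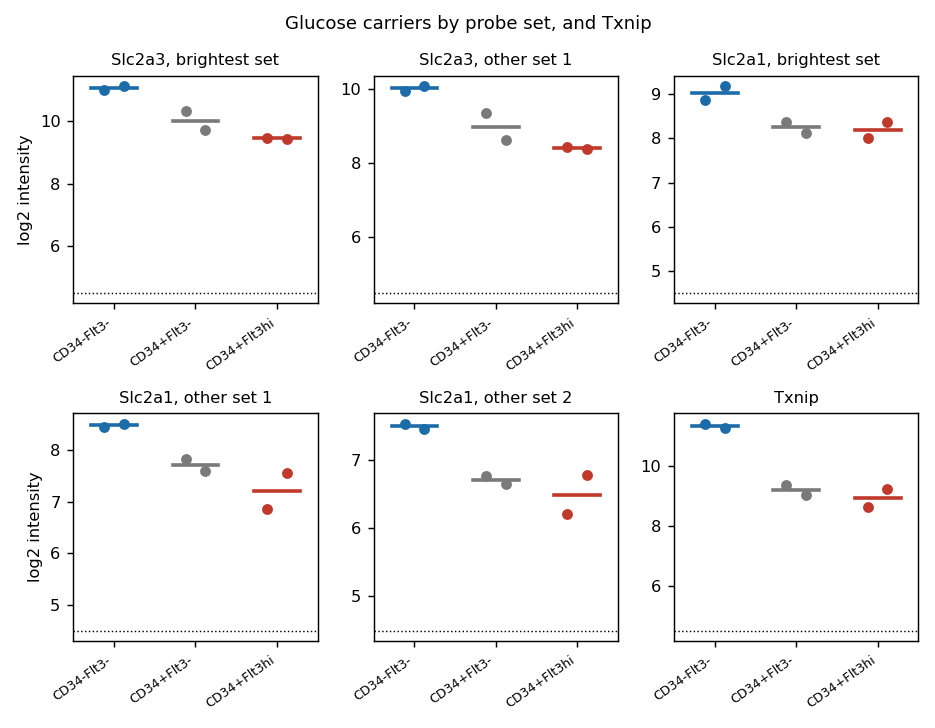
Log2 intensity (vertical axis) of each probe set of Slc2a3 and Slc2a1 above background, and of Txnip, in the 3 sorted groups (horizontal axis). Points are single arrays with replicate 1 on the left, bars are means of 2 arrays and the dotted line is background at 4.50. Both CD34-Flt3- arrays lie above the other 4 in every panel.

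Monocarboxylate and related carriers of the Slc16 family split between the outer fractions. Slc16a12, a creatine carrier, stood at 5.28 and 4.82 in CD34-Flt3-, 4.79 and 3.78 in CD34+Flt3- and 3.29 and 3.40 in CD34+Flt3hi cells. It was above background in CD34-Flt3- cells on both arrays and below it in CD34+Flt3hi cells. It was at least 1.47-fold lower there, with a fitted difference of -1.71 ± 0.32 (SE, limma adjusted p = 0.012). Without a CD34+Flt3hi array the adjusted p was 0.106 or 0.0829.

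Slc16a10, the aromatic amino acid carrier TAT1, stood at 6.31 and 5.70 in CD34-Flt3-, 6.62 and 6.36 in CD34+Flt3- and 6.97 and 7.51 in CD34+Flt3hi cells. Each CD34+Flt3hi array was above each CD34+Flt3- array, and these above each CD34-Flt3- array. The difference of 1.24 ± 0.32 (SE) between the outer fractions did not pass in limma, with adjusted p = 0.053, and its other set above background gave 0.67. Slc16a11 likewise stood at 5.56 and 5.71, then 6.15 and 6.25, then 6.54 and 6.62, a difference of 0.94 with limma adjusted p = 0.067.

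The main lactate carriers passed in no comparison. Slc16a1, MCT1, stood at 9.04 and 7.14 in CD34-Flt3-, 8.28 and 7.59 in CD34+Flt3- and 8.45 and 7.98 in CD34+Flt3hi cells. The CD34-Flt3- arrays spanned all the others, so a change within about that range was not detectable here. Slc16a3, MCT4, which exports lactate, stood just above background at 4.70 to 5.06 on all 6 arrays, with a difference of -0.30 (limma adjusted p = 0.55). Of the 11 Slc16 genes above background, 6 had a positive and 5 a negative difference between the outer fractions.

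Emb encodes embigin, a membrane chaperone of lactate carriers, and belongs to a list of 37 proteins that work with or beside the carriers, 32 of them measured. It stood at 9.18 and 8.87 in CD34-Flt3-, 8.79 and 9.33 in CD34+Flt3- and 11.29 and 11.00 in CD34+Flt3hi cells. Both CD34+Flt3hi arrays were above the other 4. The rise of 2.08 ± 0.25 (SE) from CD34+Flt3- cells was 4.24-fold (limma adjusted p = 0.006). Without CD34+Flt3hi replicate 1 or 2 or CD34+Flt3- replicate 1 its adjusted p was 0.143, 0.0804 and 0.103. Bsg, basigin, the other chaperone of the lactate carriers, ran from 7.12 to 7.87 and did not pass.

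Among amino acid carriers of the plasma membrane, Slc6a15 had the largest difference of all members. It carries branched-chain and other neutral amino acids with sodium and is known mainly from neurons. It stood at 6.91 and 6.21 in CD34-Flt3-, 4.81 and 3.44 in CD34+Flt3- and 3.54 and 3.45 in CD34+Flt3hi cells. The CD34-Flt3- arrays were above all others, and of the other 4 only CD34+Flt3- replicate 1 was above background. It was at least 4.17-fold lower in CD34+Flt3hi cells than in CD34-Flt3- cells, with a fitted difference of -3.06 ± 0.41 (SE, limma adjusted p = 0.0025).

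In the step from CD34-Flt3- to CD34+Flt3- cells Slc6a15 was at least 3.74-fold lower, with a fitted difference of -2.43 (limma adjusted p = 0.0212). Within code A this step was -2.77. The call for this step was lost without CD34+Flt3- replicate 2, at -1.75 and adjusted p = 0.222, and without CD34+Flt3hi replicate 1 or 2, at 0.0527 and 0.0532. The outer difference passed with each array left out in turn.

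The rest of Slc6, whose better known members take up neurotransmitters, passed in no comparison. Of the 21 genes of the family, 14 were above background in some group and 8 in every group. Slc6a6, the taurine carrier, was well above it, at 9.12 to 9.36 on all arrays of its brightest probe set. Its next set stood at 8.61 and 7.92 in CD34-Flt3-, 7.43 and 7.45 in CD34+Flt3- and 7.76 and 7.76 in CD34+Flt3hi cells. That is a first step of -0.83, and its dimmer sets gave -0.23 and -0.04. Slc6a16, an orphan member, stood at 4.70 and 4.95 in CD34-Flt3- cells and below background on average in both other groups. Slc6a21 was above background only on CD34-Flt3- replicate 2, at 5.14. Neither passed in any comparison.

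Slc7a7 is y+LAT1, the light chain that exports cationic amino acids in exchange for neutral ones as a partner of Slc3a2. It stood at 7.73 and 7.44 in CD34-Flt3-, 6.29 and 6.54 in CD34+Flt3- and 6.14 and 5.85 in CD34+Flt3hi cells. The CD34-Flt3- arrays stood apart from the rest. It was 3.01-fold lower in CD34+Flt3hi cells than in CD34-Flt3- cells, a difference of -1.59 ± 0.28 (SE, limma adjusted p = 0.0088), and its other probe set gave -0.67. The first step of -1.17 had limma adjusted p = 0.067. Without CD34+Flt3hi replicate 1 or 2 the outer difference had adjusted p = 0.0734 and 0.141.

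Slc7a5, LAT1, the large neutral amino acid exchanger that brings in leucine, had another order. It stood at 6.34 and 6.57 in CD34-Flt3-, 7.24 and 7.64 in CD34+Flt3- and 6.72 and 6.84 in CD34+Flt3hi cells. CD34+Flt3- cells were highest and the groups did not overlap. The steps of 0.99 ± 0.28 and -0.66 ± 0.28 (SE) did not pass in limma, with adjusted p = 0.106 and 0.67, and the difference between the steps had adjusted p = 0.401. Slc3a2, the 4F2 heavy chain shared by LAT1 and y+LAT1, did not follow that order and stood at 9.86 and 10.71, then 9.63 and 9.68, then 9.53 and 9.93.

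Slc7a4, an orphan member of the cationic amino acid carriers, stood at 8.10 and 7.16 in CD34-Flt3-, 6.85 and 6.47 in CD34+Flt3- and 6.27 and 6.37 in CD34+Flt3hi cells. Both CD34-Flt3- arrays were highest, and the difference of -1.31 had limma adjusted p = 0.055. Its other probe sets gave -1.72 and -0.04. Slc7a11, the cystine carrier xCT, was below background in all groups. Of the 8 Slc7 genes above background, 2 had a positive and 6 a negative difference between the outer fractions.

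Most glutamine carriers showed no called difference. Slc38a2, SNAT2, stood between 10.00 and 10.56 on all arrays of its brightest probe set. Its next set was lower in CD34-Flt3- cells, at 8.47 and 8.01 against 8.67 to 9.15 on the other arrays, a first step of 0.87. Slc1a5, ASCT2, stood between 7.61 and 8.37, and its dimmer set between 4.54 and 6.18. Slc38a1, SNAT1, stood at 9.62 and 8.79 in CD34-Flt3-, 9.20 and 8.35 in CD34+Flt3- and 9.66 and 9.51 in CD34+Flt3hi cells. Both CD34+Flt3hi arrays were above both CD34+Flt3- arrays, and the CD34-Flt3- range overlapped each. Its other set had no overlap, at 8.17 and 7.99, then 8.61 and 8.33, then 8.84 and 8.75. With the brightest sets and no block, none of these carriers passed in any comparison.

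Slc38a5, SNAT5, which carries glutamine and glycine, was the exception. It stood at 5.95 and 4.63 in CD34-Flt3-, 4.45 and 3.95 in CD34+Flt3- and 3.79 and 3.78 in CD34+Flt3hi cells. Only the CD34-Flt3- arrays were above background, and they differed by more than 2-fold from each other. Slc38a5 was at least 1.73-fold lower in CD34+Flt3hi cells, with a fitted difference of -1.50 ± 0.38 (SE, limma adjusted p = 0.0455). This call was lost with no intensity trend (limma adjusted p = 0.0708), repeated quantile normalization (0.0520) and median centring (0.0610). It was lost too with the mean of all probe sets (0.0670) and with only the 4 arrays compared (0.0860). Without CD34-Flt3- replicate 1 the difference was -0.84 with adjusted p = 0.0609. The call was also lost without either CD34+Flt3- array (0.0843 and 0.0869) or either CD34+Flt3hi array (0.240 and 0.231). Slc38a7, a lysosomal glutamine carrier, ran from 6.01 to 6.79, with both CD34+Flt3- arrays below both CD34-Flt3- arrays, and did not pass.

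Slc43a3, which carries purine nucleobases, rose between the outer fractions. It stood at 6.85 and 6.71 in CD34-Flt3-, 7.42 and 7.78 in CD34+Flt3- and 7.90 and 8.0 in CD34+Flt3hi cells. The 3 groups did not overlap. It was 2.25-fold higher in CD34+Flt3hi cells than in CD34-Flt3- cells, a difference of 1.17 ± 0.26 (SE, limma adjusted p = 0.0288). Without CD34+Flt3hi replicate 1 or 2 the adjusted p was 0.236 and 0.283.

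The other Slc43 members carry large neutral amino acids. Slc43a2, LAT4, stood at 7.83 and 8.70 in CD34-Flt3-, 7.57 and 7.72 in CD34+Flt3- and 8.63 and 8.83 in CD34+Flt3hi cells. CD34+Flt3- cells were lowest on this probe set, and the step of 1.08 to CD34+Flt3hi did not pass in limma (adjusted p = 0.28). Another set above background stood at 5.76 and 5.0, then 6.04 and 5.98, then 7.10 and 6.98, with CD34-Flt3- cells lowest and a like step of 1.03. On both sets CD34+Flt3hi cells had the highest mean. Slc43a1, LAT3, stood at 7.26 and 5.95 in CD34-Flt3- cells, and its other 4 arrays lay between these values.

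The remaining heavy chain and the glutamate and neutral amino acid carriers of Slc1 passed in no comparison. Slc3a1, the rBAT heavy chain, stood at 4.08 to 4.93. Slc1a2 and Slc1a7, glutamate carriers, stood at 4.66 to 5.32 and 4.94 to 5.81, and Slc1a4, ASCT1, at 4.79 to 5.89. For Slc1a7 both CD34+Flt3hi arrays were above both CD34-Flt3- arrays, and for the others all groups overlapped. None passed. All 5 Slc1 genes above background had a positive difference between the outer fractions, with values from 0.04 to 0.44.

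**Figure D4:**
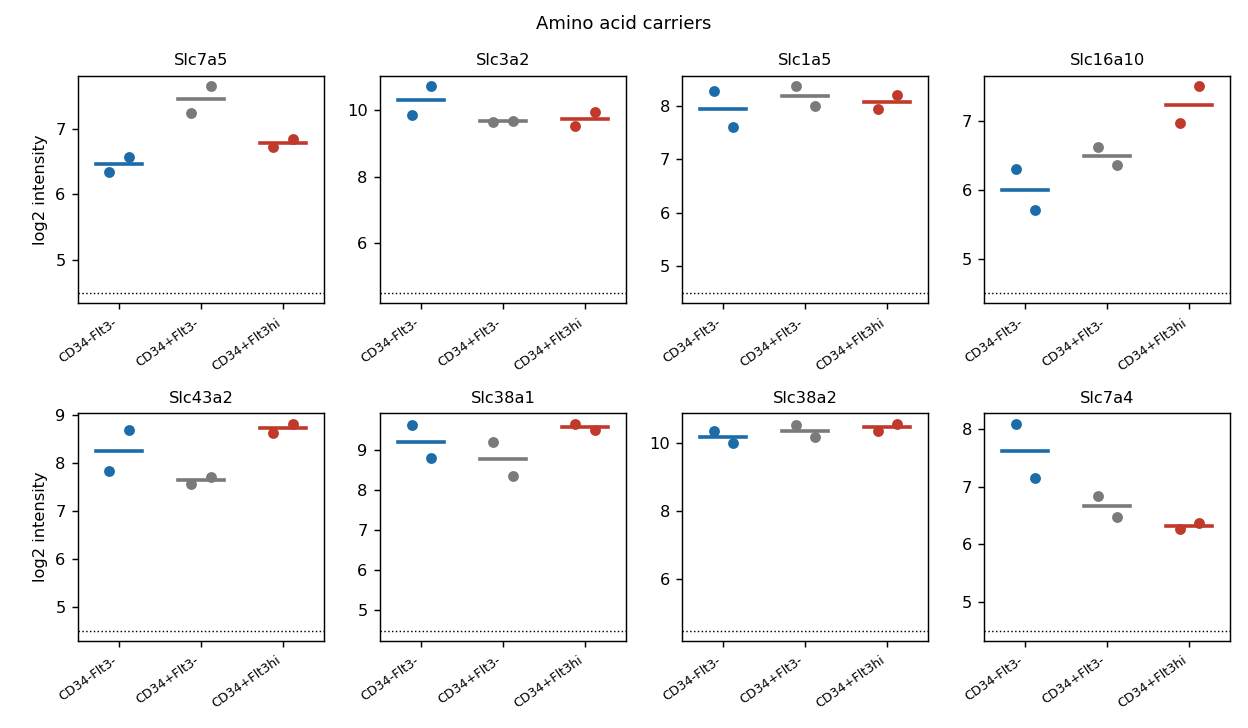
Log2 intensity (vertical axis) of 8 amino acid carriers in the 3 sorted groups (horizontal axis), none past the threshold. Points are single arrays with replicate 1 on the left, bars are means of 2 arrays and the dotted line is background at 4.50. On these probe sets Slc7a5 is highest and Slc43a2 lowest in CD34+Flt3- cells, and Slc38a2 stays between 10.00 and 10.56.

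Mitochondrial carriers were the largest family, with 40 of 44 genes above background in some group and 39 in every group. Slc25a30, the kidney mitochondrial carrier KMCP1, was called. It stood at 6.53 and 5.64 in CD34-Flt3-, 6.97 and 6.88 in CD34+Flt3- and 7.51 and 7.65 in CD34+Flt3hi cells. The groups did not overlap and the level was higher at each step. It was 2.82-fold higher in CD34+Flt3hi cells than in CD34-Flt3- cells, a log2 difference of 1.50 ± 0.33 (SE, limma adjusted p = 0.0245).

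The probe sets of Slc25a30 disagreed. One other set gave 1.43 between the outer fractions, another 0.45 and another -0.11, and the last was below background. With the mean of all sets the difference was 0.60 (limma adjusted p = 0.163). With the brightest set, the call was also lost without either CD34+Flt3hi array (adjusted p = 0.176 and 0.217), either CD34+Flt3- array (0.0526 and 0.0532) or CD34-Flt3- replicate 2 (0.0531).

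Slc25a12 is aralar, an aspartate and glutamate exchanger of the malate-aspartate shuttle that brings reducing equivalents from the cytosol into mitochondria. It stood at 9.0 and 8.01 in CD34-Flt3-, 8.77 and 8.60 in CD34+Flt3- and 9.89 and 9.58 in CD34+Flt3hi cells. Both CD34+Flt3hi arrays were above the other 4. The difference of 1.23 between the outer fractions had limma adjusted p = 0.0555, and the step of 1.05 from CD34+Flt3- cells had 0.35. Its other probe sets gave 0.98 and -0.10.

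Slc25a53 was likewise highest on both CD34+Flt3hi arrays, at 6.39 and 5.93, then 6.22 and 5.88, then 7.35 and 7.20. The step of 1.23 from CD34+Flt3- to CD34+Flt3hi cells was the largest such step of any member and the one with the smallest adjusted p, 0.148 in limma. The difference between the outer fractions was 1.12 (adjusted p = 0.052), and its other probe set gave -0.20. Slc25a54, the remaining gene called between the outer fractions, was below background in every group, so no level or fold is given.

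The nucleotide exchangers that carry ADP in and ATP out passed in no comparison. Slc25a5, ANT2, stood at 12.61 and 12.12 in CD34-Flt3-, 12.68 and 12.49 in CD34+Flt3- and 12.89 and 12.80 in CD34+Flt3hi cells. CD34+Flt3hi cells were highest on both arrays, and all 8 of its probe sets had a positive outer difference, from 0.36 to 1.29, but the brightest set's 0.48 ± 0.18 (SE) had limma adjusted p = 0.17. Slc25a4, ANT1, stood at 10.77 and 10.15, then 10.23 and 9.89, then 10.60 and 10.38, with both CD34+Flt3hi arrays above both CD34+Flt3- arrays and within the CD34-Flt3- range.

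Across the Slc25 genes above background, 30 of 40 had a positive difference in the step from CD34+Flt3- to CD34+Flt3hi cells, with a median of 0.13 against 0.05 over all genes above background. That is 75%, where 56.9% of all genes above background were positive. The pattern was not the same in both title codes. Within code A 33 of 40 were positive with a median of 0.32, and within code B 19 of 40 with a median of -0.0035. Of the 101 carriers above background, 66 were positive within code A and 50 within code B. The code A array of CD34+Flt3- cells, replicate 2, was the lowest of the 6 arrays for 20 of the 40 genes, and replicate 1 was above it in 31. In the step from CD34-Flt3- to CD34+Flt3- cells 14 of 40 were positive, with a median of -0.13 against -0.14 over all genes above background. That is 35%, where 37.0% of all genes above background were positive.

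**Figure D5:**
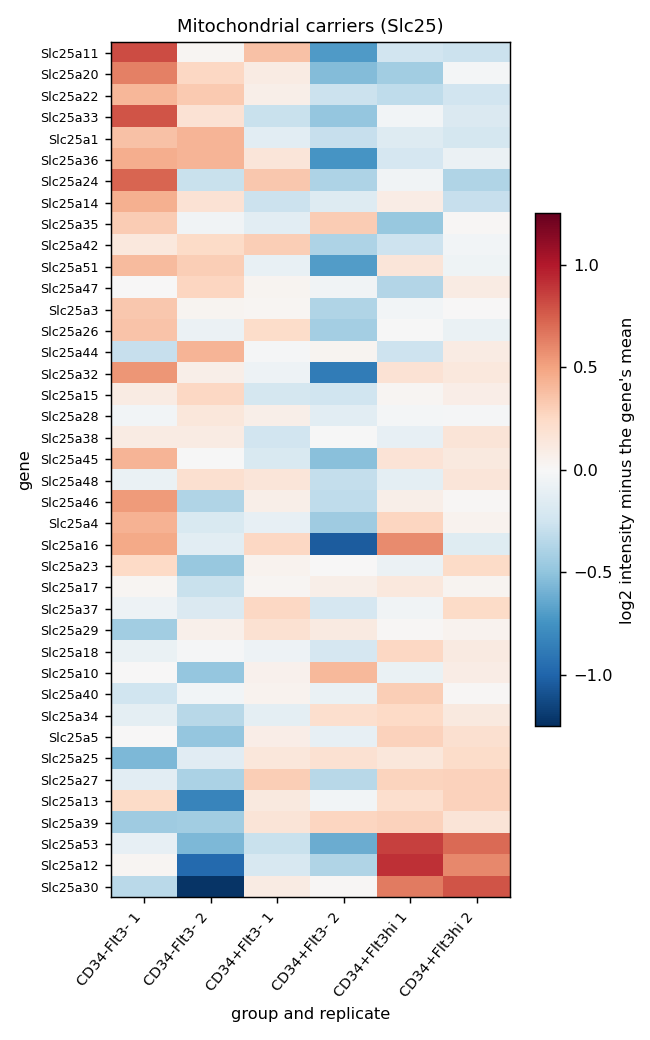
Log2 intensity minus the gene's mean over the 6 arrays (colour, from -1.25 to 1.25) of the 40 Slc25 genes above background (vertical axis) on each array by group and replicate (horizontal axis), ordered by the difference between the outer fractions. Slc25a30, Slc25a12 and Slc25a53 are the bottom rows, red in both CD34+Flt3hi columns, and the column of CD34+Flt3- replicate 2 is the lowest of the 6 for 20 genes.

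The proteins that work with or beside the carriers comprised the voltage-dependent anion channels, hexokinases, lactate dehydrogenases and enzymes of amino acid metabolism, besides the chaperones. In the step from CD34-Flt3- to CD34+Flt3- cells 1 of 32 passed as higher (0.77% of all genes), in the step to CD34+Flt3hi 1 (0.385% of all genes), and between the outer fractions 2 passed as higher (2.62% of all genes) and 2 as lower (3.5% of all genes). Psat1, an enzyme of serine synthesis, rose in the first step from 9.56 and 9.04 to 10.56 and 10.39, a difference of 1.17 (limma adjusted p = 0.037), and stood at 10.49 and 10.33 in CD34+Flt3hi cells. Glul, glutamine synthetase, fell between the outer fractions from 10.77 and 10.71 to 9.65 and 9.39, a difference of -1.21 (limma adjusted p = 0.009). Ldhb, a subunit of lactate dehydrogenase, fell from 9.78 and 10.58 to 8.82 and 9.04, a difference of -1.25 (limma adjusted p = 0.029). Emb, described above, was the other gene called, as higher in CD34+Flt3hi cells in both comparisons. Without CD34+Flt3- replicate 1 or 2 the adjusted p of Psat1 in the first step was 0.128 and 0.264, and without CD34+Flt3hi replicate 1 or 2 it was 0.111 in each case. That step of Psat1 was 0.86 (0.138) with the mean of its probe sets and 0.54 (0.385) without x and s sets, and its outer difference of 1.11 was also lost in both, at 0.136 and 0.534, and without CD34+Flt3hi replicate 1 or 2, at 0.262 and 0.159. Without CD34+Flt3hi replicate 1 or 2 the outer adjusted p was 0.0777 and 0.159 for Glul and 0.287 and 0.163 for Ldhb. Ldhb was also lost without CD34-Flt3- replicate 2 (0.0655) and without CD34+Flt3- replicate 1 or 2 (0.0547 and 0.0555).

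Regulators of carrier genes and nutrient sensing numbered 42, of which 41 were measured. In the step from CD34-Flt3- to CD34+Flt3- cells 4 passed as lower (1.33% of all genes) and 0 as higher (0.77% of all genes), with a list median above background of -0.31 against -0.14 for all genes. Between the outer fractions 5 passed as lower (3.5% of all genes) and 0 as higher (2.62% of all genes). Besides Txnip, Mycn, a Myc family factor, stood at 10.10 and 8.70 in CD34-Flt3-, 7.55 and 7.21 in CD34+Flt3- and 6.63 and 6.76 in CD34+Flt3hi cells (outer difference -2.70, limma adjusted p = 0.004), while Myc ran from 9.16 to 10.01 and did not pass. With the mean of all its probe sets the outer difference of Mycn was -1.02 (adjusted p = 0.0692). Its first step of -2.02 (limma adjusted p = 0.039) was lost without either array of either CD34+ group, at adjusted p = 0.0920 to 0.369. Trib3, a pseudokinase induced when amino acids are short, fell in the first step from 7.68 and 8.21 to 5.75 and 6.42, by 1.86 (limma adjusted p = 0.036). Without CD34+Flt3- replicate 1 or 2 this step had adjusted p = 0.146 and 0.217, and without CD34+Flt3hi replicate 1 or 2 it had 0.0665 and 0.0673. Its outer difference was lost without CD34+Flt3hi replicate 1 (0.209).

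Sesn1, a sestrin that restrains mTORC1, stood at 10.66 and 10.39 in CD34-Flt3-, 9.54 and 9.37 in CD34+Flt3- and 10.42 and 10.33 in CD34+Flt3hi cells. It was lowest in CD34+Flt3- cells, where LAT1 was highest, and its first step of -1.07 had limma adjusted p = 0.034. Igf1r, the insulin-like growth factor receptor, and Castor2, of the arginine sensor family, were lower in CD34+Flt3hi cells than in CD34-Flt3- cells, with differences of -1.08 and -1.17 on the log2 scale (limma adjusted p = 0.024 and 0.041). Without CD34+Flt3hi replicate 1 or 2 the adjusted p was 0.268 and 0.200 for Igf1r and 0.270 and 0.303 for Castor2. Castor2 was also lost without CD34-Flt3- replicate 1 (0.0739) and without CD34+Flt3- replicate 1 or 2 (0.0586 and 0.0583). Averaging a gene's probe sets gave -0.65 (0.154) for Igf1r and -0.60 (0.232) for Castor2. The first step of Sesn1 was -0.68 (0.208) with the mean of its sets, and it was lost without CD34+Flt3- replicate 1 or 2 (0.0774 and 0.290) and without CD34+Flt3hi replicate 1 or 2 (0.115 in each case).

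Markers of other cell types also differed between arrays. The summed linear intensity of 6 endothelial genes was 527 and 474 in CD34-Flt3-, 288 and 286 in CD34+Flt3- and 216 and 171 in CD34+Flt3hi cells, the order of Slc2a3 and Slc7a7, with Kdr and Tie1 called lower between the outer fractions, where 3.5% of all genes were, and Cdh5 below background on all arrays. That of 6 B lineage genes was 3401 on CD34-Flt3- replicate 1 against 341 on replicate 2, 293 and 415 in CD34+Flt3- and 3012 and 3137 in CD34+Flt3hi cells, with Ms4a1 below background on all arrays. None of these 6 was called. A linear sum mostly follows the brightest genes. Of the 5 B lineage genes above background, 2 were higher and 3 lower between the outer fractions, with a median difference of -0.24 and a largest of 2.98. In the step to CD34+Flt3hi all 5 were higher, with a median of 0.32 and a largest of 4.54. The sum of 7 mast cell, basophil and eosinophil genes was highest in CD34+Flt3- cells, at 685 and 564 against 189 to 350 on the other arrays, in the group where Slc7a5 was highest, with Prg2 below background on all arrays. Of these, Ms4a2 was called higher in the first step, Cpa3 and Ms4a2 lower in the step to CD34+Flt3hi and Cpa3 lower between the outer fractions. Csf1r, of the neutrophil and monocyte genes, was called higher in the step to CD34+Flt3hi, by 2.03, and between the outer fractions, by 3.16. Of the stromal and bone genes, Pdgfrb was called higher in the first step and between the outer fractions, and Col1a2 lower between the outer fractions. Sums ran from 1224 to 1571 for 8 neutrophil and monocyte genes, with S100a8 and Ltf below background on all arrays, from 211 to 301 for 6 T and NK genes, with Cd3g below background on all arrays, from 355 to 852 for 5 mature erythroid genes and from 235 to 449 for 5 stromal and bone genes. The part of such cells in the carrier results was not tested.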

How the data were processed

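Biotin-labelled RNA of sorted cells was measured on 6 arrays, 2 for each of 3 groups. The deposited values were taken as linear intensities after RMA, which the submitters' processing notes name without a version. That scale is an inference from their range, 6.50 to 24173, and array medians were 29.7 to 31.4. Arrays have no depth, so their number limits the precision.

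Of 45101 probe sets, 64 controls, 932 with several symbols and 9160 with none were left out, and 2 of the several-symbol sets name a carrier. The 127 members had 257 probe sets, 68 of them more than 1, and RefSeq's gene list matched 99.1% of gene identifiers. The log2 values of all 18193 genes on the 6 arrays entered 1 limma model (version 3.58.1, R 4.3.3, statmod 1.5.0, version 1.17.8 of the data.table package). It fitted a mean per group, and its prior variance followed intensity. Residual degrees of freedom were 3, prior ones 6.86, and the residual SD had a median of 0.24. Two-sided p-values were adjusted across all genes (Benjamini-Hochberg) and called under 0.05. The code was tested on simulated data. Figures used matplotlib 3.10.9 in Python 3.11.15.

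Members, lists and tests were chosen with earlier results of these data known. Named were members past the threshold in any test, up to 3 members a family with the smallest F p above background, 12 well known carriers, and related genes past the threshold. Bsg, Myc, Kit, Slc6a6, Slc7a8 and called marker genes were named besides, after their values were seen. No protein sequence is printed, as none was used here.

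Alternatives tried were a fixed or random block for the title code, no intensity trend, repeated quantile normalization, median centring, a filter on dim genes, averaging a gene's probe sets, dropping x and s probe sets, only the 4 arrays compared, an adjusted p of 0.10 and each array left out in turn. For genes of the related lists these were added after seeing the data. Replicate numbers follow accession order and were not used to pair samples, and the shared title code served as the block.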

Additional observations from a re-analysis of the deposited data

How the results depend on the processing

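Counts are of the 127 carriers past the threshold in limma, in the order step from CD34-Flt3- to CD34+Flt3-, step to CD34+Flt3hi, outer fractions and F, against 1, 0, 8 and 4 as reported. A fixed block for the title code gave 10, 6, 18 and 18, where comparisons with CD34-Flt3- rest on its replicate 2 alone. With a random block (consensus correlation 0.109) the first was 2. Repeated quantile normalization gave 2 for the first and 8 for F. With only the 4 arrays compared the counts were 0, 3 and 5 for the pairwise comparisons. The mean of all probe sets gave 2 for F. At an adjusted p of 0.10 they were 3 for the first, 15 for the outer fractions and 8 for F. Leaving out each array in turn gave 0 to 5, 0 to 3, 1 to 17 and 1 to 15. The outer count was 1 without CD34+Flt3hi replicate 1 or 2, 5 without CD34+Flt3- replicate 1 or 2, 17 without the replicate 1 array of CD34-Flt3- and 10 without the replicate 2 array. Slc2a3 reversed to 0.30 between the outer fractions when x and s probe sets were left out (adjusted p = 0.582), where its remaining brightest set was below background in every group. Slc6a15, Slc16a12, Slc38a5, Slc43a3 and Slc25a54 were each read from a single probe set. Averaging sets and dropping x and s sets therefore left their differences unchanged and are no check of them. The outer difference of Slc6a15 passed in every setting that tested it, and was left out by the filter on dim genes. It was -3.08 with the fixed block, whose fit has fewer residual degrees of freedom, and -3.02 without CD34+Flt3hi replicate 2. The median of all genes in the first step was -0.10 as reported, -0.03 after repeated quantile normalization and -0.12 after median centring. The paired analysis is the block on the title code, since the replicate numbers themselves come from accession order. Signal over background limits what the 26 carriers below background can show. Of the values of single named genes under these alternatives, 1623 kept their direction and side of the threshold or moved by less than the spread between arrays, 69 newly passed, 97 no longer passed, 154 moved by more and 1 reversed. Most of these values are of comparisons not called in the main fit, which could not lose a call. The 97 and the 1 come only from the fewer called comparisons, so the 1623 do not measure how stable the calls are.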
